A study of Mus musculus with 31 samples.

Results

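The change in gene expression as neonatal thymocytes passed from the double positive (DP) stage, with both CD4 and CD8 on the surface, to the CD8 single positive (SP8) stage was measured by RNA sequencing. The comparison used 8 of the 31 libraries of the series, namely all libraries of neonatal DP (n = 4) and of neonatal SP8 (n = 4). The mice were C57BL/6 animals of 5 to 7 days, with no treatment given in the labels. DP cells were sorted from the thymus fraction retained on CD4 beads. SP8 cells were sorted from cells that passed the CD4 beads and were retained on CD8 beads, and sorting used antibodies to CD4, CD8, CD44 and CD25. No antibody to the T cell receptor was listed, so the SP8 gate could also hold CD8 single positive cells that precede the DP stage. The adult counterparts, DP and SP8 cells of C57BL/6 mice of 12 weeks (n = 4 each), were used to ask whether the change differed with age. DN thymocytes and splenic naive CD8 T cells of both ages were used for reference levels only. The design text calls the libraries biological replicates, and whether each was 1 animal or a pool was not stated.

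At the DP stage thymocytes rearrange the T cell receptor alpha chain and are then tested on peptides bound to major histocompatibility complex (MHC) molecules. Cells selected on MHC class I survive, stop recombination, silence Cd4 and keep Cd8. They also gain the receptors needed to move to the medulla and out of the thymus. Runx3 is the transcription factor best known for fixing the CD8 lineage and silencing Cd4, and Ccr7 is the chemokine receptor that directs selected cells to the medulla.

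The 8 libraries held between 15213614 and 23054677 counts. Replicates of a group were correlated at 0.994 to 0.997 in DP and 0.995 to 0.997 in SP8 (Pearson's r of log2 CPM across genes). All levels below are CPM, counts divided by the scaled library size and brought to a common total, and all changes are fitted log2 fold changes of SP8 over DP with a standard error (SE). Calls rest on edgeR's quasi-likelihood test with Benjamini-Hochberg adjustment over 16461 genes, at a threshold of 0.05. By this rule 11434 genes (69.5%) were called, of which 5802 (35.2%) were higher and 5632 (34.2%) were lower in SP8. At least 2-fold changes were called higher for 3355 genes (20.4%) and lower for 3053 (18.5%). Counts of called list members below are to be read beside the shares of 35.2% and 34.2% over all tested genes. The median log2 fold change over all tested genes was -0.02. With scaling to library totals alone it was -0.22, and 41.8% of called genes were higher in place of 50.7%. In bulk samples, fewer cells of a type and less RNA per cell cannot be told apart.

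Cd4, whose protein was used to sort the cells, differed in the direction of the labels. Cd4 (ENSMUSG00000023274, chromosome 6, 124864692 to 124888221, minus strand, mm10) was at 1569, 1668, 1634 and 1620 CPM in the 4 DP libraries. In SP8 it was at 11.8, 12.4, 9.60 and 14.2 CPM. Every SP8 library was below every DP library, the log2 fold change was -7.08 (SE 0.18, adjusted p = 1.4e-25), and DP exceeded SP8 135-fold. Cd8a, the alpha chain of the CD8 coreceptor, was at 2809 ± 159 CPM in DP and 1387 ± 38.2 in SP8 (SD, n = 4). Cd8b1, the beta chain, was at 1564 ± 112 and 598 ± 18.6 CPM. Both CD8 chains thus fell, with log2 fold changes of -1.02 (SE 0.08, adjusted p = 4.3e-14) and -1.39 (SE 0.10, adjusted p = 1.4e-14).

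Runx3 (chromosome 4, 135120652 to 135177990, plus strand, mm10) was at 19.4, 19, 21.7 and 20.1 CPM in DP. It was at 122, 130, 104 and 116 CPM in SP8, with a log2 fold change of 2.56 (SE 0.11, adjusted p = 1.8e-21). Ccr7 (chromosome 11, 99144196 to 99155077, minus strand, mm10) was at 3.46, 2.01, 3.22 and 3.57 CPM in DP. Its SP8 values of 247, 210, 234 and 222 CPM were all above the DP values, a 75.0-fold difference (log2 6.23, SE 0.16, adjusted p = 6.4e-27). All 3 markers separated the groups without overlap, as the plot of stage genes by library shows. Groups did not overlap for 65.3% of all tested genes, and 63.3% were also called.

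**Figure D1:**
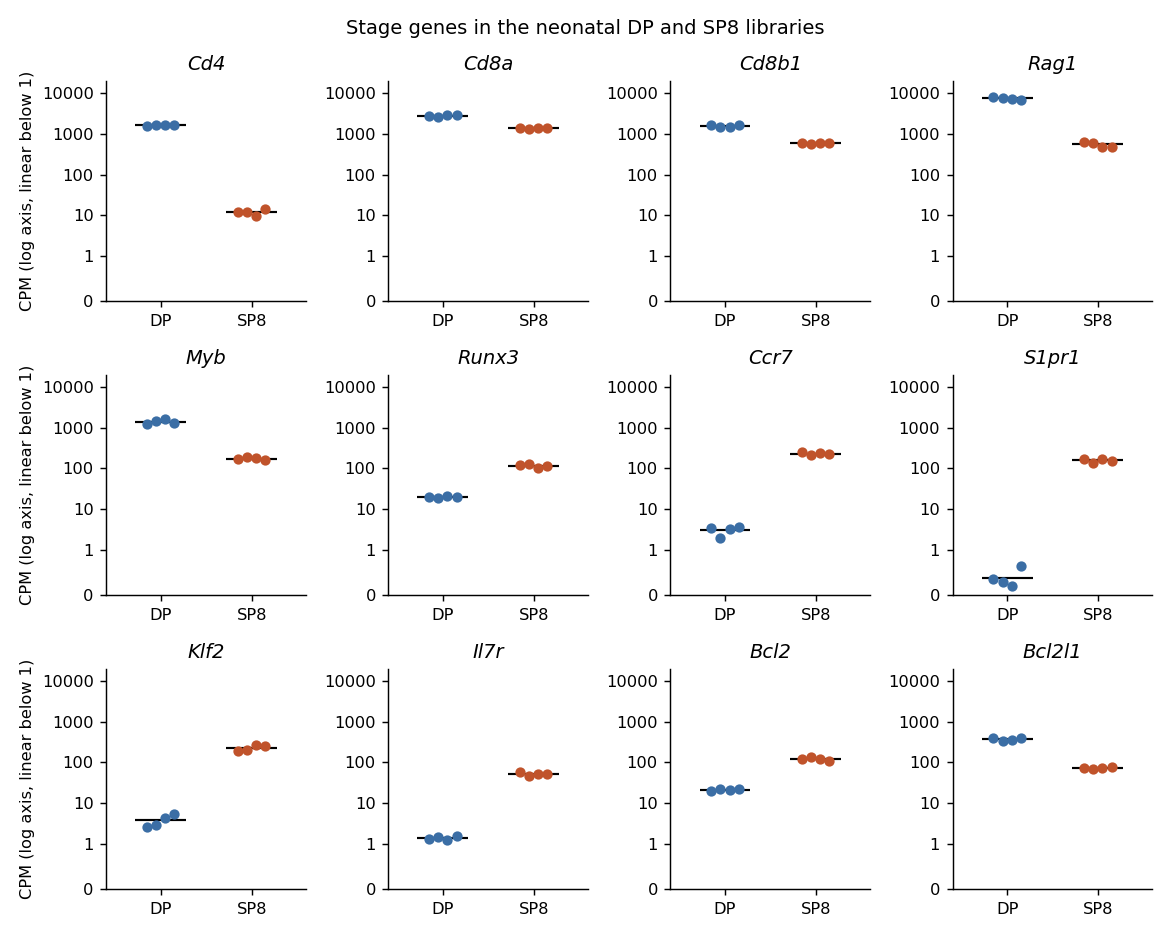
Level of 12 stage genes in each of the 4 neonatal DP (blue) and 4 neonatal SP8 (orange) libraries, in CPM on an axis that is logarithmic above 1 and linear below it; black bars are means. Groups overlap for none of the 12 genes, and S1pr1 shows the widest gap, from under 1 CPM in DP to between 139 and 175 CPM in SP8.

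Among 30 transcription factors of T cell lineage choice, 8 rose, 19 fell and 3 were not called, with a median log2 fold change of -0.84. Cbfb, the common binding partner of RUNX proteins, rose from 175 ± 11.8 to 328 ± 29.0 CPM (SD, n = 4). Runx1, the RUNX factor that predominates in immature thymocytes, fell from 165 ± 14.5 to 75.2 ± 7.05 CPM. Zbtb7b, which encodes the CD4 lineage factor ThPOK, was low in both groups and fell from 1.47 ± 0.622 to 0.198 ± 0.156 CPM (log2 -2.83, SE 0.51, adjusted p = 8.6e-06).

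Klf2, a zinc finger factor that activates egress receptors, gave 2.62, 2.85, 4.38 and 5.38 CPM in DP. In SP8 it gave 186, 195, 259 and 252 CPM, a 58.8-fold rise (log2 5.88, SE 0.23, adjusted p = 4.2e-19). Foxo1, a factor of quiescence and homing, rose from 81.0 ± 7.34 to 152 ± 11.2 CPM. The inhibitors of E proteins Id2 and Id3 rose by 1.03 and 0.57 on the log2 scale (adjusted p = 3.7e-06 and 7.2e-06).

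Bcl6, a repressor expressed in preselection DP cells, was at 204, 248, 262 and 217 CPM in DP. It was at 9.71, 12.7, 10.6 and 12.0 CPM in SP8 (log2 -4.37, SE 0.12, adjusted p = 6.4e-27). Myb, a factor for DP survival, fell 8.08-fold from 1410 ± 184 to 174 ± 11.6 CPM. The chromatin organiser Satb1 fell 3.43-fold, from 3189 ± 121 to 931 ± 54.2 CPM. Smaller falls were called for Bcl11b (log2 -1.33), Tcf7 (-1.07), Patz1 (-1.0), Tox (-0.78), Gata3 (-0.64) and Ets1 (-0.61). Lef1 gave 195 ± 30.5 CPM in DP and 234 ± 31.1 in SP8 and was not called (log2 0.27, adjusted p = 0.23), but was called with the replicate number as a block (log2 0.27, adjusted p = 0.0043), with no low-count filter (0.28) and with only the 8 neonatal DP and SP8 libraries (0.27).

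RefSeq promoter sequence (build GRCm38.p6, the assembly also named mm10) was matched for Runx3 and Klf2, both of which rose. The 250 bases before each start are shown with the letters CACCC or GGGTG, a core bound by KLF factors, and TGTGGT or ACCACA, a core bound by RUNX factors, in capitals. Both strands were searched, and these motifs share no bases in the windows shown. Runx3 has a distal and a proximal promoter, at chr4:135120395-135120644 and chr4:135152295-135152544 on the plus strand, and Klf2 is at chr8:72318812-72319061 on the plus strand.
Runx3 distal: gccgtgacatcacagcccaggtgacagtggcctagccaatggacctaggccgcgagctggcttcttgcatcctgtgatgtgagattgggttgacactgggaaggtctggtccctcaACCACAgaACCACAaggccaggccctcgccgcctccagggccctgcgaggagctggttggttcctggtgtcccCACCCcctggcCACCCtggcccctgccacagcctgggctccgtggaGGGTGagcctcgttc
Runx3 proximal: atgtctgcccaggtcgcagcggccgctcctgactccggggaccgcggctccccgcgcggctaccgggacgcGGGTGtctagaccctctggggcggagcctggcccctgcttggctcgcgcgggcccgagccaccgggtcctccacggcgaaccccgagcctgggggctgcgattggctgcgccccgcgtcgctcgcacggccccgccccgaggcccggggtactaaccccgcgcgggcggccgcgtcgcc
Klf2: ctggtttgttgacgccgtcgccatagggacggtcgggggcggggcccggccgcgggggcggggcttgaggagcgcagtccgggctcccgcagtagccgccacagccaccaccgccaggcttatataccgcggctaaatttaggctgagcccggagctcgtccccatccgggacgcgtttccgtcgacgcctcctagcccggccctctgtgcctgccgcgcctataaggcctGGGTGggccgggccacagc
The distal Runx3 window held 2 RUNX and 3 KLF matches, the proximal window 0 and 1, and the Klf2 window 0 and 1. The RUNX letters were present in 14% and the KLF letters in 52.1% of 32536 windows of the same length in the table. Among windows of genes called at least 2-fold higher in SP8 the shares were 12.4% and 57.8%, and among those called at least 2-fold lower they were 11.4% and 61.9%. The counts are per gene, so they do not tell which Runx3 promoter was in use.

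The recombination and DP programme fell, with 16 of 18 members called lower, 0 called higher and a median log2 fold change of -2.49. Rag1, which with Rag2 cuts receptor gene segments, was at 8334, 7794, 7348 and 6961 CPM in DP. It was at 648, 592, 481 and 489 CPM in SP8 (log2 -3.78, SE 0.27, adjusted p = 1.1e-12), 13.8-fold lower but still among abundant transcripts. Rag2 fell from 248 ± 11.4 to 21.7 ± 1.58 CPM, and Dntt, which adds untemplated bases at junctions, fell from 1211 ± 128 to 189 ± 35.1 CPM.

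Slc7a11, a cystine transporter, fell 82.5-fold from 151 ± 6.69 to 1.83 ± 0.140 CPM. Plxnd1, a semaphorin receptor of DP cells, fell 24.9-fold, and Ccr9, a chemokine receptor of cortical thymocytes, fell 8.52-fold. Themis, a receptor signalling adaptor, fell 3.53-fold and Rmnd5a 4.92-fold.

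The 2 members not called were Ptcra and Mns1. Ptcra, the surrogate alpha chain of the pre-T cell receptor, gave 36.2, 43.8, 37.6 and 42.7 CPM in DP and 31.1, 38.8, 37.5 and 39.7 CPM in SP8, with overlapping groups. Mns1 gave 135 ± 14.6 and 123 ± 3.92 CPM. Cd24a, a surface protein of immature thymocytes, fell only from 180 ± 13.8 to 145 ± 2.98 CPM (log2 -0.31, SE 0.09, adjusted p = 0.0029). In neonatal splenic CD8 T cells Ptcra was at 0.212 ± 0.0975 CPM, Cd24a at 3.73 ± 0.263 CPM and Rag1 at 2.53 ± 2.21 CPM. The part of immature CD8 single positive cells in these SP8 levels was not tested.

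Of 30 genes of the receptor complex and its signalling, 5 rose, 19 fell and 6 were not called, with a median log2 fold change of -0.63. The receptor constant region Trac gave 319 ± 11.4 CPM in DP and 295 ± 15.5 in SP8 and was not called, as was Cd3g (590 ± 52.0 and 547 ± 21.1 CPM). Trbc1 and Trbc2, near-identical beta chain constant regions whose reads may have been shared, fell by 1.17 and 0.95 on the log2 scale. Cd247, the zeta chain, fell from 401 ± 24.7 to 144 ± 6.33 CPM, and Cd3e from 321 ± 47.7 to 240 ± 18.1 CPM. The kinase Lck fell 2.06-fold and the adaptor Lat 2.01-fold, whereas Zap70, the kinase recruited to the engaged receptor, was at 326 ± 26.4 and 307 ± 18.8 CPM and was not called. With scaling to library totals alone, Trac, Cd3g and Zap70 were called lower (log2 -0.32, -0.31 and -0.29). Cblb, a ubiquitin ligase that restrains signalling, rose from 31.9 ± 2.30 to 69.1 ± 6.74 CPM, and the adhesion receptor Cd2 from 115 ± 12.6 to 250 ± 10.4 CPM.

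Of 25 genes that respond to receptor engagement, 13 rose, 2 fell and 10 were not called, with a median of 0.65; with scaling to library totals alone 5 were called lower. Myc, a driver of growth, was at 15.2, 14.6, 14.5 and 13.6 CPM in DP and 184, 182, 212 and 201 CPM in SP8. The 13.5-fold rise left no overlap (log2 3.75, SE 0.11, adjusted p = 7.2e-26). Egr3 rose from 7.43 ± 1.11 to 42.1 ± 3.44 CPM, Nr4a3 from 6.66 ± 1.28 to 19.4 ± 2.40 CPM, and Tnfrsf9, the costimulatory receptor 4-1BB, from 1.19 ± 0.332 to 19.3 ± 0.894 CPM. Pdcd1, the inhibitory receptor PD-1, rose from 3.98 ± 0.290 to 14.1 ± 0.388 CPM.

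Other members of the same list moved little. Cd69, a surface protein of recently engaged cells, was at 32.4, 24.9, 34.2 and 33.4 CPM in DP and 31.3, 37.0, 32.6 and 26.9 CPM in SP8, so the groups overlapped. Its log2 fold change of 0.04 (adjusted p = 0.83) was below 0 with scaling to library totals alone and without DP replicate 2 or SP8 replicate 2. Egr1 gave 92.8 ± 10.3 and 82.3 ± 5.31 CPM and was not called. Nr4a1 gave 51.6 ± 5.42 and 59.9 ± 5.37 CPM (log2 0.22, adjusted p = 0.094) and was called with the replicate block (log2 0.22, adjusted p = 0.038), with only the 8 neonatal DP and SP8 libraries (log2 0.22) and without DP replicate 3 or SP8 replicate 1 (log2 0.29 and 0.30). Cd5, which scales with receptor signal strength, fell from 259 ± 12.9 to 198 ± 6.06 CPM, and the phosphatase Dusp5 fell 2.13-fold.

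Of 28 trafficking genes, 15 (53.6%) rose, 8 (28.6%) fell and 5 were not called, with a median of 0.71. Over all tested genes the shares were 35.2% and 34.2%. S1pr1, the sphingosine 1-phosphate receptor required to leave the thymus, was at 0.358, 0.294, 0.211 and 0.644 CPM in DP. It was at 175, 139, 170 and 155 CPM in SP8 (log2 8.73, SE 0.20, adjusted p = 7.8e-28), the largest change of the 28. Itgae, the integrin alpha E chain that binds epithelial E-cadherin, rose from 1.62 ± 0.484 to 225 ± 19.8 CPM, and its partner Itgb7 from 20.4 ± 1.09 to 533 ± 22 CPM.

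Ms4a4b, a membrane protein of maturing T cells, rose 50.1-fold from 7.74 ± 0.870 to 387 ± 25.3 CPM. Ccr8 rose from 0.416 ± 0.210 to 18.2 ± 2.51 CPM, and S1pr4 from 36.6 ± 4.01 to 132 ± 13.7 CPM. Among the members that fell were Cxcr4, which holds thymocytes in the cortex (203 ± 23.5 to 66.8 ± 6.63 CPM), and Ccr4 (31.8 ± 2.69 to 10.8 ± 1.86 CPM).

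Cytokine receptors and their signalling genes divided evenly, with 16 of 32 higher and 16 lower (50% each, against 35.2% and 34.2% of all tested genes). Leaving out members with 3 counts or fewer in every library of a group, 14 of 30 were higher and 16 lower. Il7r, the receptor chain for the survival cytokine IL-7, was at 1.31, 1.42, 1.27 and 1.52 CPM in DP and 57.3, 46.9, 51.8 and 52.4 CPM in SP8 (log2 5.23, SE 0.18, adjusted p = 1.2e-23). Il2rb, the chain shared by the IL-2 and IL-15 receptors, was at 0 CPM in DP replicates 1 and 2, at 0.158 and 0.585 CPM in replicates 3 and 4, and between 120 and 132 CPM in SP8. Il6ra rose 22.7-fold, Jak3 3.91-fold and Tgfbr2 2.64-fold. Members that fell included Il4ra (252 ± 17.7 to 94.5 ± 5.56 CPM), Stat5b (574 ± 8.37 to 246 ± 19.8 CPM), and the signalling inhibitors Socs1 (4.91-fold) and Socs3 (5.04-fold).

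The BCL2 family governs thymocyte survival, and 15 of its 18 listed members passed the count filter. Of these 7 (46.7%) rose, 6 (40%) fell and 2 were not called, against 35.2% and 34.2% of all tested genes. Bcl2, the survival protein of mature thymocytes, was at 19.8, 22.3, 20.5 and 21.5 CPM in DP and 120, 131, 120 and 110 CPM in SP8 (log2 2.52, SE 0.10, adjusted p = 4.7e-22). Bcl2l1, whose BCL-XL product protects DP cells, went the other way, from 406, 341, 355 and 391 CPM to 70.7, 68.8, 74.3 and 78.1 CPM (log2 -2.35, SE 0.09, adjusted p = 2e-22). Both groups of values were free of overlap. Mcl1 fell by 0.37 on the log2 scale. The death-promoting Bmf fell 15.4-fold, from 325 ± 15.3 to 21.2 ± 1.73 CPM, and Bbc3, which encodes PUMA, fell 5.12-fold.

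**Figure D2:**
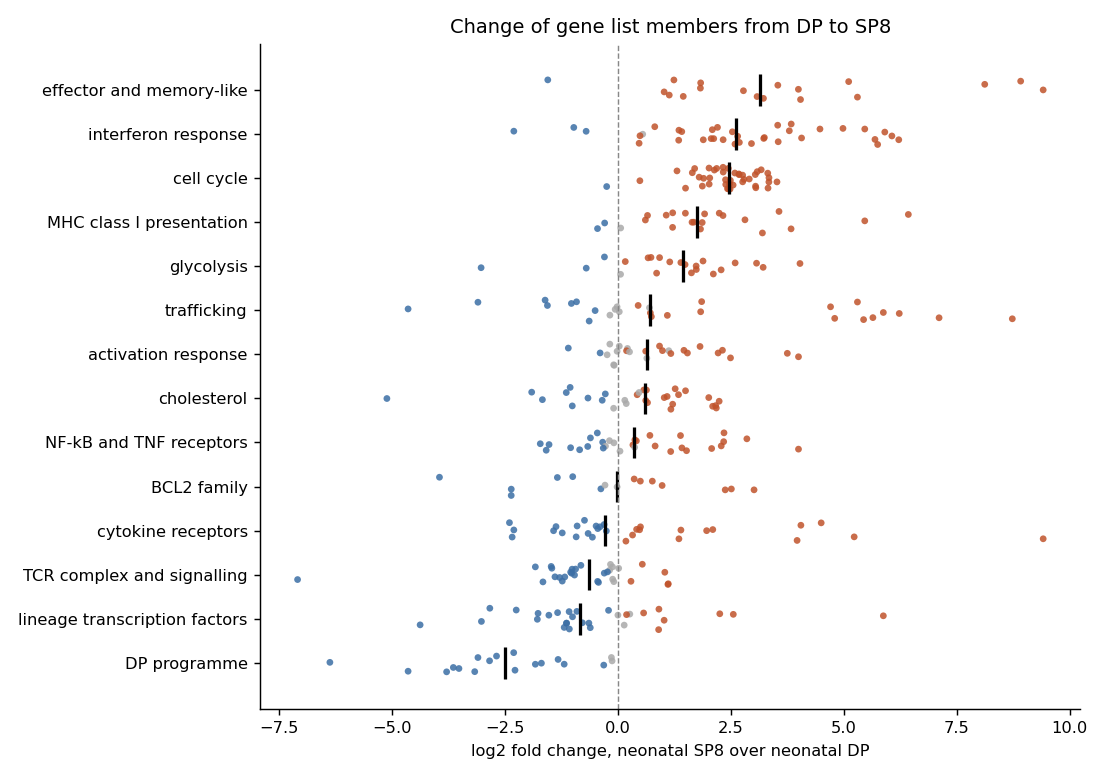
Fitted log2 fold change (neonatal SP8 over neonatal DP) of the members of 14 gene lists, with 1 point per tested gene, called genes in orange (higher) or blue (lower), genes not called in grey and black bars for the medians of the points shown; members at or below 3 counts in every library of a group are left out. The DP programme lies to the left of 0 and nearly all cell cycle members lie to the right.

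Cell cycle genes rose as a group, with 41 of 42 called higher and 40 of them at least 2-fold (median log2 fold change 2.46). Their summed level was between 2700 and 3710 CPM in the DP libraries and between 13000 and 13600 CPM in SP8. The SP8 gate could also hold CD8 single positive cells that precede the DP stage, and their part in this rise was not tested. Mki67, a proliferation antigen, was at 186, 164, 184 and 240 CPM in DP and 1195, 1121, 890 and 963 CPM in SP8 (log2 2.43, SE 0.31, adjusted p = 1.5e-07). Top2a, a topoisomerase of dividing cells, was at 137, 105, 138 and 202 CPM in DP and 1320, 1287, 1092 and 1097 CPM in SP8 (log2 3.04, SE 0.23, adjusted p = 7e-12).

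DP replicate 4 was the highest DP library for both genes, and for Cdk1 and Mcm5, yet lay below every SP8 library. Cdk1 rose 10.2-fold and the replication helicase subunit Mcm5 6.79-fold. E2f2 was the member that fell (log2 -0.24, SE 0.08, adjusted p = 0.0092), and it was not called without SP8 replicate 1 (log2 -0.18).

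Genes that set entry into the cycle changed composition. Of 16 tested cyclin D, cyclin-dependent kinase, inhibitor and antiproliferative genes, 5 rose, 9 fell and 2 were not called. Ccnd2, a D cyclin induced by mitogens, was at 7.21, 4.17, 4.22 and 5.50 CPM in DP and 498, 474, 381 and 367 CPM in SP8 (log2 6.36, SE 0.22, adjusted p = 9.7e-21). Ccnd3, the D cyclin of DP cells, fell from 1863 ± 36.2 to 527 ± 36 CPM. Cdk4 rose 4.37-fold, whereas the inhibitors Cdkn1b and Cdkn1c fell 3.29-fold and 6.75-fold and Btg2, which restrains proliferation, fell 4.79-fold.

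Presentation through MHC class I rose, with 20 of 23 genes called higher, 2 lower and 1 not called (median 1.83). H2-K1, a classical class I heavy chain, was at 10.8, 10.2, 14.2 and 15.7 CPM in DP and 1088, 957, 1168 and 1182 CPM in SP8 (log2 6.43, SE 0.15, adjusted p = 6e-28). H2-D1 rose from 84.4 ± 8.27 to 1002 ± 67.0 CPM, and B2m, the light chain, from 91.4 ± 13.0 to 840 ± 31.8 CPM. Class I genes are similar in sequence, so reads may have been shared between them.

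Nlrc5, the transactivator of class I genes, was at 3.88, 2.7, 3.64 and 3.04 CPM in DP and 150, 142, 150 and 142 CPM in SP8 (log2 5.47, SE 0.14, adjusted p = 7.8e-28). The proteasome genes Psmb9 and Psme2 rose 5.03-fold and 7.04-fold. The peptide transporter Tap2 (log2 -0.45, adjusted p = 1.1e-05) and the peptide editor Tapbpl (-0.29, adjusted p = 1.5e-04) fell. The nonclassical H2-T23 was at 216 ± 9.42 and 226 ± 8.04 CPM and was not called (log2 0.07), with a log2 fold change of -0.14 under scaling to library totals alone.

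Interferon response genes rose in 33 of 38 cases, with 4 lower, 1 not called and a median of 2.62. Among the 36 with more than 3 counts in some library of each group, 32 were called higher and 3 lower. Ifit3, an antiviral protein, was at 0.775, 0.736, 0.581 and 0.702 CPM in DP and 49.1, 43.0, 45.8 and 50.8 CPM in SP8, a 67.0-fold difference (log2 6.07, SE 0.28, adjusted p = 1.3e-18). Ifit1 rose from 0.934 ± 0.304 to 49.9 ± 7.01 CPM, Oas3 from 2.25 ± 0.453 to 100 ± 4.02 CPM, and Irf7, a factor that amplifies the response, from 8.0 ± 0.484 to 93.8 ± 5.43 CPM. Stat2, which transmits the type I interferon signal, fell from 86.2 ± 7.33 to 53.1 ± 3.89 CPM, and Gbp4 fell 1.96-fold.

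Of 35 cytotoxic and memory-like genes, 17 were at or below 3 counts in every DP library, and the summed level of the 35 was 156 to 216 CPM in DP and 1100 to 1300 CPM in SP8. Of 34 tested, 30 were called higher, 1 lower and 3 not called. In 16 of the 34, every library of at least 1 group had 3 counts or fewer, and these passed the filter through the other group or other stages, so the count of calls over the 34 is a description only. Among the 18 above that level in both groups, 17 were called higher and 1 lower. The fitted median was 3.99, and it was 2.63 with such genes set to the change against 3 counts per library, or to 0 where both groups were at or below them, and 0.51 with all 16 set to 0. Eomes, a factor of memory CD8 cells, was at 0.417, 0.0491, 0 and 0 CPM in DP and 34.2, 24.7, 33.4 and 37.5 CPM in SP8. Nkg7, a granule protein, was at 0.119, 0.245, 0.105 and 0.293 CPM in DP and 96.9, 86.0, 94.4 and 106 CPM in SP8 (log2 8.91, SE 0.24, adjusted p = 4.6e-26).

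The protease Ctsw rose from 6.73 ± 0.594 to 232 ± 22.5 CPM, Gzma from 14.4 ± 1.56 to 99.0 ± 15.4 CPM, and the pore protein Prf1 from 6.31 ± 0.781 to 22.5 ± 2.47 CPM. Tbx21, a factor of effector cells, reached 5.52 ± 1.03 CPM in SP8. Prdm1, a repressor of terminal effectors, fell from 2.37 ± 0.287 to 0.799 ± 0.245 CPM. Gzmk was at 0 in all 8 libraries.

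Several markers of gamma-delta T cells also rose. Of 11 such genes, 8 were called higher, 2 lower and 1 not called. Leaving out members with 3 counts or fewer in every library of a group, 5 of 7 were called higher and 2 lower. The summed level of the 11 was lower in SP8 all the same, at 726 to 849 CPM in DP and 243 to 252 CPM in SP8. Trdc, the delta constant region, rose from 31.4 ± 4.26 to 81.2 ± 4.80 CPM. Cd163l1, a scavenger receptor known from gamma-delta T cells, was at 0.417, 0.441, 0.422 and 0.176 CPM in DP and 66.8, 55.9, 66.6 and 53.1 CPM in SP8. It was at 244 ± 24.5 CPM in neonatal splenic CD8 T cells. Trdc and Cd163l1 both rose, whereas the 2 members called lower are not named here. Most of the summed DP level lay in members other than Trdc and Cd163l1. Of 10 natural killer and innate lymphoid markers 4 (40%, against 35.2% of all tested genes) were called higher and 0 lower. Leaving out members with 3 counts or fewer in every library of a group, 1 of 3 was called higher. Of the 10, 4 were at or below 3 counts in every library of both groups, Ncr1 and Il1rl1 among them. The sum went from 4.11 to 4.39 CPM in DP to between 28.4 and 41.2 CPM in SP8, mostly Eomes. The part of such cells in the cytotoxic gene result was not tested.

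Markers of other cells were summed in the same way. Sums over 20 myeloid and dendritic genes were 13.5 to 15.8 CPM in DP and 15.3 to 21.3 CPM in SP8. Of 17 tested, 4 (23.5%) were higher and 1 (5.88%) lower. Sums over 13 stromal genes were 11.3 to 16.4 and 15.7 to 18.2 CPM, with 3 of 6 tested genes (50%) higher and 0 lower. Sums over 10 erythroid genes were 2.01 to 2.38 and 7.56 to 9.09 CPM, with 1 of 7 (14.3%) higher and 0 lower. The 12 B cell genes summed to 414 to 445 and 388 to 415 CPM, nearly all of it Ighm at 398 ± 11.4 and 392 ± 14.2 CPM, with 1 higher and 3 lower. Genes of the CD4 lineage summed to 1610 to 1710 CPM in DP, mostly Cd4, and 40.6 to 43.8 CPM in SP8. Of the 10, 3 (30%) were higher and 4 (40%) lower, near the 35.2% and 34.2% of all tested genes. Without members at 3 counts or fewer in every library of a group, 2 of 8 myeloid genes were higher and 1 lower. Likewise 2 of 4 stromal and 1 of 5 erythroid genes were higher and 0 lower. For B cell genes 0 of 7 were higher and 3 lower, and for CD4 lineage genes 2 of 9 and 4.

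NF-kappa B and TNF receptor genes rose in 15 of 30 cases and fell in 10, with a median of 0.36. Nfkb1 rose from 85.8 ± 2.40 to 225 ± 2.18 CPM, Rel 2.68-fold and Relb 4.89-fold, and the receptor Tnfrsf1b rose from 12.1 ± 1.19 to 87.7 ± 2.82 CPM. Cd27, a costimulatory receptor, fell from 473 ± 25 to 158 ± 12.8 CPM. Nfkbia, the inhibitor I kappa B alpha, was at 190, 202, 196 and 178 CPM in DP and 76.6, 132, 80.8 and 84.0 CPM in SP8 (log2 -1.04, SE 0.20, adjusted p = 3.6e-05), with SP8 replicate 2 above the other SP8 libraries.

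Of 18 tested genes of Notch and pre-receptor signalling, 7 rose, 5 fell and 6 were not called. These shares of 38.9% and 27.8% were near the 35.2% and 34.2% of all tested genes. Leaving out members with 3 counts or fewer in every library of a group, 5 of 14 rose and 5 fell. Notch1 was at 467 ± 33.5 CPM in DP and 465 ± 39.2 in SP8 (log2 -0.01, adjusted p = 0.96), with a sign that changed when DP replicate 2, SP8 replicate 3 or SP8 replicate 4 was left out. Notch3 fell 4.32-fold and Il2ra, the IL-2 receptor alpha chain of early thymocytes, 5.26-fold. Dtx1, a target of Notch, rose from 72.0 ± 16.4 to 114 ± 3.11 CPM, and Kit, the stem cell factor receptor, from 13.5 ± 0.947 to 18.8 ± 1.25 CPM.

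Glycolysis genes rose in 18 of 23 cases and fell in 3, with a median of 1.40. Ldha, which makes lactate, was at 278, 244, 249 and 325 CPM in DP and 1326, 1244, 1342 and 1447 CPM in SP8 (log2 2.29, SE 0.10, adjusted p = 1.4e-21). Ldhb, whose subunit favours the reverse reaction, fell from 563 ± 63.9 to 69.3 ± 6.42 CPM (log2 -3.02, SE 0.10, adjusted p = 1.4e-24). Hk2, a hexokinase, rose 16.4-fold to 26.2 ± 1.89 CPM, Tpi1 8.41-fold and Gapdh 2.63-fold.

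Of 30 cholesterol genes, 17 rose, 9 fell and 4 were not called (median 0.60). The synthesis enzymes Hmgcs1 and Sqle rose 4.29-fold and 4.04-fold. The export pumps moved down. Abca1 was at 44.7, 51.5, 42.9 and 56.1 CPM in DP and 1.61, 0.953, 0.815 and 2.33 CPM in SP8 (log2 -5.11, SE 0.21, adjusted p = 7.4e-21), and Abcg1 fell 3.74-fold.

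Glycan genes divided, with 11 of 23 (47.8%) higher and 9 (39.1%) lower, against 35.2% and 34.2% of all tested genes. Leaving out members with 3 counts or fewer in every library of a group, 8 of 20 were higher and 9 lower. The sialyltransferases St3gal1, known for capping glycans of mature CD8 cells, and St6galnac4 rose 3.06-fold and 5.62-fold, whereas St3gal2 fell 10.2-fold, from 35.3 ± 2.10 to 3.46 ± 0.711 CPM. Nt5e, the surface enzyme CD73, was at or below 3 counts in every DP library and at 8.93 ± 0.813 CPM in SP8, at least 54.1-fold higher (against 3 counts per library). Of 8 Gimap genes, a family of lymphocyte GTPases with similar copies, 4 rose and 4 fell (50% each, against the same shares). Gimap4 (3.79 ± 0.561 to 201 ± 20.9 CPM) and Gimap3 (3.40 ± 0.344 to 136 ± 16.9 CPM) were among those that rose.

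Among 25 enzymes of DNA and histone modification, 14 (56%) rose and 7 (28%) fell, against 35.2% and 34.2% of all tested genes. This lean depended on the scaling, since 10 rose and 10 fell with library totals alone. Dnmt1, which copies DNA methylation at replication, rose 3.99-fold, and Kdm6b, a histone H3 lysine 27 demethylase, fell 3.71-fold. Of 13 tested genes of the fetal programme, 8 rose (5 with scaling to library totals alone), 2 fell and 3 were not called. Among the 11 with more than 3 counts in some library of each group, 7 rose and 2 fell. The imprinted RNA H19 rose from 1.31 ± 0.791 to 17.5 ± 2.60 CPM, and Snrpn from 1.99 ± 0.739 to 10.5 ± 1.27 CPM. Igf2bp3, an RNA-binding protein of the fetal state, was at 58.3 ± 4.57 and 72.6 ± 3.75 CPM (log2 0.32, adjusted p = 0.022) and was not called without DP replicate 4 (log2 0.27) or with scaling to library totals alone (0.11). Sox4 fell 4.31-fold.

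The 10 largest called rises and falls without overlap, among named genes of at least 10 CPM, were taken by fitted log2 fold change. For genes at or near 0 in a group that value depends on the prior count, so their order is not one of measured folds. Among the rises, Igfbp4, a binding protein of insulin-like growth factors, was at 0.179, 0.0491, 0.158 and 0 CPM in DP and 337, 359, 363 and 374 CPM in SP8, at least 2170-fold higher against 3 counts per library. Golm1 (18.2 ± 1.74 CPM in SP8) and Klrd1, a natural killer receptor chain (15.4 ± 2.53 CPM), had 0 counts in all DP libraries and were at least 111-fold and 93.6-fold higher. Neurl3 was at least 212-fold higher. Rflnb was at 0, 0, 0.211 and 0 CPM in DP and 44.8, 47.9, 47.0 and 46.3 CPM in SP8. Il2rb was also among the 10. Apol9b, Art2b, Ly6c2 and H2-Q7, which belong to families of similar genes, were the others, at 10.4 to 23.9 CPM in SP8, with lower bounds of 63.2-fold, 88.0-fold, 145-fold and 143-fold.

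Among the falls were BB031773 (55.0 ± 5.31 CPM in DP, at least 339-fold lower) and Hrh3, a histamine receptor (19 ± 2.56 CPM, at least 117-fold lower). Cacna1e, a calcium channel subunit, was at 216, 285, 261 and 227 CPM in DP and 0.460, 0.655, 0.362 and 0.325 CPM in SP8, 550-fold lower. The sodium channel subunit Scn4b fell 135-fold and the RNA-binding protein Rbm24 285-fold. Mm2pr fell 98.2-fold, the metalloprotease Adam12 89.4-fold from 180 ± 9.01 CPM, and the matrix protein Smoc1 72.2-fold from 109 ± 2.53 CPM. Cd4 and Slc7a11 were the other two of the 10.

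**Figure D3:**
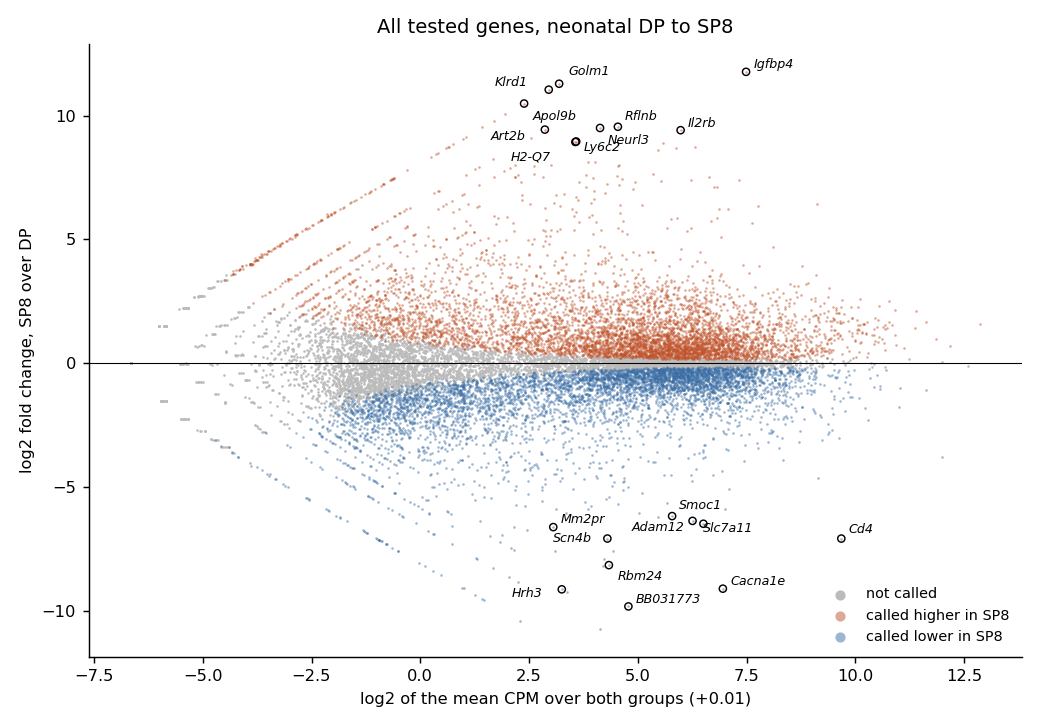
Fitted log2 fold change against mean level for all 16461 tested genes, with genes called higher in SP8 in orange, called lower in blue and not called in grey; circles mark the 10 largest rises and 10 largest falls by the naming rule. Fitted values of genes with no counts in a group, which form the slanted lines at the left, depend on the prior count and are no measured fold.

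Levels at DN and in the spleen were set beside those of DP and SP8 for 7 genes. Mki67 was at 902 ± 129 CPM in neonatal DN, 193 ± 32.8 in DP, 1042 ± 140 in SP8 and 79.0 ± 6.24 in splenic CD8 T cells. Myc was at 318 ± 31.1 CPM in DN, and Ldha at 1599 ± 102 CPM, against 14.4 ± 0.668 and 274 ± 37.3 CPM in DP. Ifit1 was highest in SP8 and was at 7.31 ± 3.38 CPM in the splenic cells. H2-K1, Ccr7 and Eomes were higher again in the splenic cells, at 2992 ± 206, 323 ± 6.59 and 159 ± 14.9 CPM. These levels at DN and CD8 are given as description, with no test. The part of immature CD8 single positive cells in the SP8 levels of Mki67, Myc and Ldha was not tested.

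**Figure D4:**
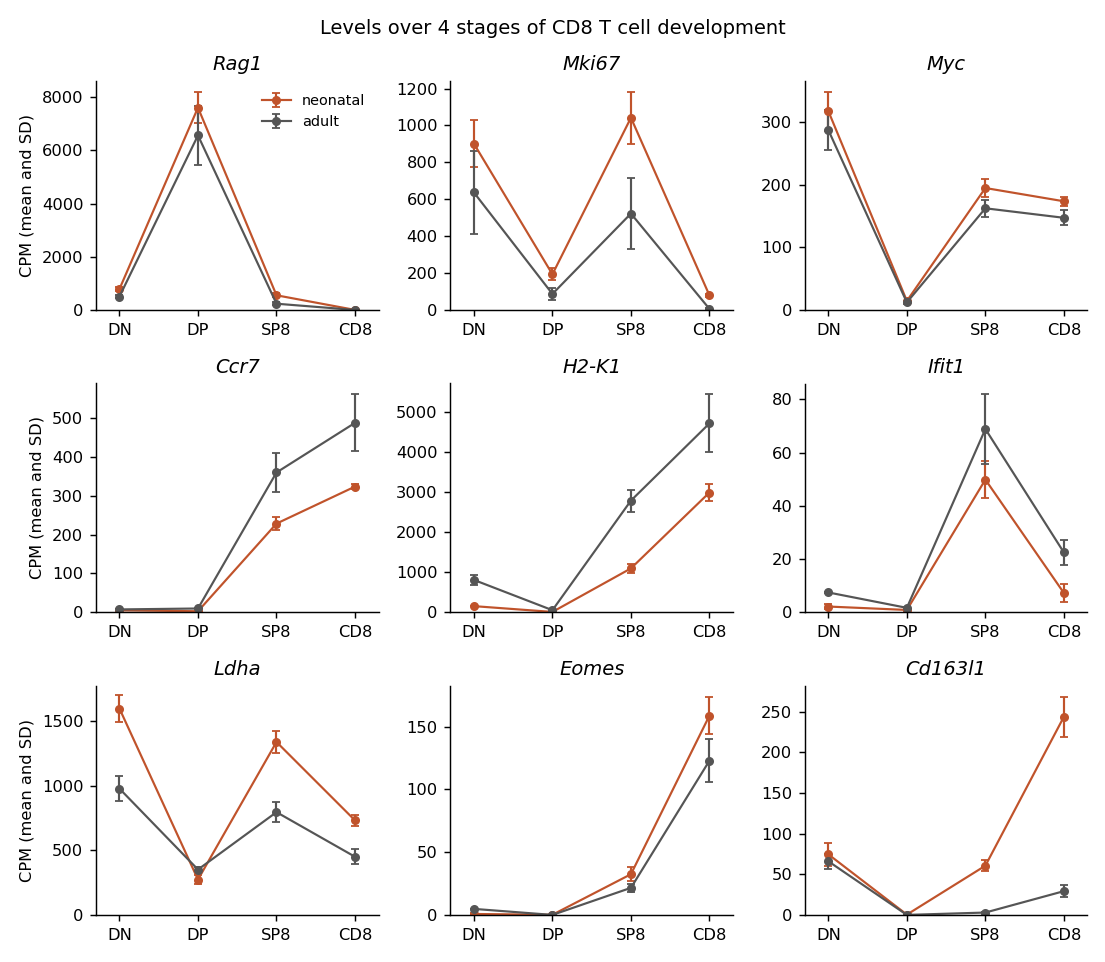
Mean CPM with SD of 9 genes over DN, DP, SP8 and splenic CD8 in neonates (orange, n = 4 per stage) and adults (grey, n = 4, or 3 at DN). Mki67, Myc and Ldha dip at DP, Rag1 peaks there at 7609 CPM in neonates, and Cd163l1 reaches 60.6 CPM in neonatal SP8 against 2.91 CPM in adult SP8.

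Whether the transition differed with age was tested as the neonatal log2 fold change minus the adult one. This difference was called for 3588 of 16461 genes (21.8%), of which 1819 (11.1%) were above 0 and 1769 (10.7%) below 0. With scaling to library totals alone, 36.4% of called differences were above 0 in place of 50.7%. At least 2-fold differences numbered 201 above and 552 below. No batch was given in the labels, and whether the ages were processed together cannot be told apart from age.

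The recombination and DP programme fell less in neonates for 9 of 18 genes and more for 1. Rag2 went from 248 to 21.7 CPM in neonates and from 232 to 10.9 CPM in adults (difference 0.91, SE 0.23, adjusted p = 0.0039). Cd24a fell less in neonates (1.02, adjusted p = 4e-07), and Ccr9 fell more (-1.05, adjusted p = 1.1e-05). The difference for Rag1 (1.02, adjusted p = 0.032) was not called without adult DP replicate 1 or 4, adult SP8 replicate 2, neonatal DP replicate 2, 3 or 4 or neonatal SP8 replicate 1 or 2, with values from 0.86 to 1.03. It was also not called with DESeq2 (1.04) or with library totals alone (0.92).

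Cell cycle differences were above 0 for 13 of 42 genes and below 0 for 0, and the summed adult level was 2080 to 2470 CPM in DP and 5670 to 8160 CPM in SP8. For Mki67 the difference was -0.16 (adjusted p = 0.84), with adult levels of 86.9 CPM in DP and 523 CPM in SP8. Glycolysis differences were above 0 for 14 of 23 genes and below 0 for 1, with 1.11 for Ldha (adjusted p = 1.5e-07) and 1.30 for Hk2 (adjusted p = 1.9e-05).

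Cytokine receptor and signalling genes leaned the other way, with 15 of 32 differences below 0 and 3 above. Il6ra went from 3.40 to 77.4 CPM in neonates and from 0.699 to 66.0 CPM in adults (-2.08, adjusted p = 1.6e-04), Jak3 gave -0.93 and Tgfbr2 -0.80. The difference for Il2rb was above 0 (1.76, adjusted p = 0.0073), with an adult DP level of 1.02 CPM and an adult SP8 level of 204 CPM. The neonatal levels of Il2rb given above were lower than these in both DP and SP8, and its neonatal DP counts were close to none. NF-kappa B and TNF receptor genes were below 0 for 11 of 30 and above for 1, led by Tnfrsf25.

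Runx3 rose less in neonates (-0.82, SE 0.15, adjusted p = 1.6e-04), as did Id2 (-1.89) and Foxo1 (-1.40). Ccr7 rose more (1.08, adjusted p = 2.4e-04) with a DP level of 3.06 CPM in neonates and 10.1 in adults and an SP8 level of 228 and 359 CPM. S1pr1 gave a difference of -1.42 that was not called (adjusted p = 0.062) and was called with the replicate block (-1.44, adjusted p = 0.030).

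Abca1 fell in neonates and was similar at both stages in adults, with 73.2 ± 8.42 CPM in adult DP and 71.6 ± 5.87 in adult SP8 (difference -5.07, SE 0.26, adjusted p = 7.6e-16). Tnfrsf25 was at 34.1 ± 2.59 and 27.3 ± 1.08 CPM in neonates, and at 1.70 ± 0.587 and 17.8 ± 2.57 CPM in adults. Dtx1 and Kit likewise started high in neonatal DP, at 72.0 and 13.5 CPM against 13.1 and 0.997 CPM in adult DP. H2-Q6 and H2-Q7 reached 1.08 and 23.6 CPM in neonatal SP8 and 78.1 and 402 CPM in adult SP8. H19 reached 17.5 CPM in neonatal SP8 and 0.744 CPM in adult SP8.

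**Figure D5:**
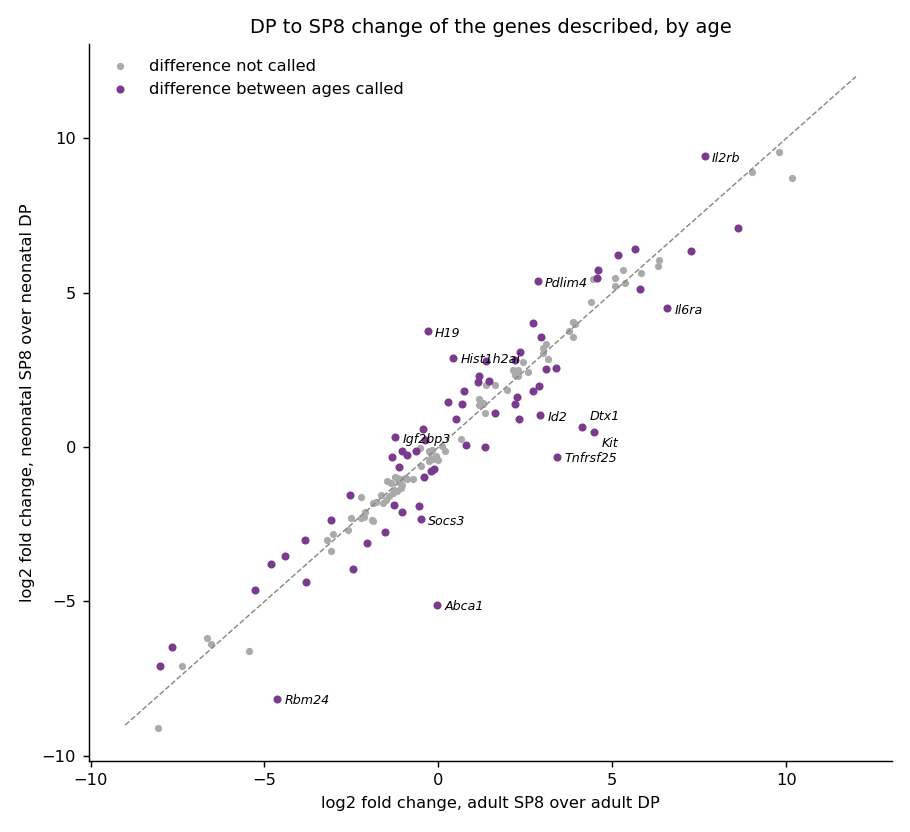
Fitted log2 fold change from DP to SP8 in neonates against that in adults for the genes named here, leaving out those at or below 3 counts in every library of a group; purple points have a called difference between ages, grey points do not, names mark differences of at least 1.5, and the dashed line marks equal change. Abca1 lies near 0 for adults and at -5.11 for neonates.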

How the data were processed

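Polyadenylated RNA of sorted thymocytes was sequenced, and the authors deposited raw read counts per Ensembl gene (53700 genes in 31 libraries). Each library had its own column of counts. Trim Galore, STAR 2.7.10a and the build mm10 are named in the submitters' processing notes. The counting tool, the annotation release and the use of strand are not given in the sources used here, so counts of overlapping, antisense and near-identical genes are uncertain. Symbols and positions came from GENCODE mouse release 21 (52147 identifiers, 97.1%). The analysis ran in R 4.3.3. edgeR 4.0.16 removed low genes (filterByExpr across 8 groups, count of at least 10, total of at least 15) and applied TMM scaling. One mean per group was then fitted to the 31 libraries, and contrasts were taken by the quasi-likelihood F-test. Dividing the log2 fold change, without its sign, by the root of F gave the SE. CPM uses TMM library sizes. P-values rest on a spread estimated over all 31 libraries, and do not measure the spread of the 8 neonatal DP and SP8 libraries alone. No replicate pair differed by as little as sampling noise (chi-square per degree of freedom of at least 4.65). A group whose libraries all hold 3 counts or fewer is at the floor, which covers counting error only.

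Same-numbered DP and SP8 libraries deviated together (r of 0.211 to 0.381 over 8857 genes, and 8 of 8 libraries were closest to their own number), although the labels do not say what the number shares. Fits with that number as a block are given where they change a call.

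The genes and lists were chosen with earlier results of these data known. Genes named belong to a list, are among the 10 largest rises and falls among called genes of at least 10 CPM without overlap, or are among the 5 highest and lowest age differences, leaving out predicted genes, pseudogenes and receptor segments. Some genes that met these rules are not reported here. DESeq2 1.42.0, limma 3.58.1, other scalings, other filters, other sample sets and leaving out each library were tried as alternatives. The test was checked on simulated counts.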

Additional observations from a re-analysis of the deposited data

Results flagged for a closer look

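The change from DP to SP8 differed between neonates and adults, by edgeR's test of the difference itself, for 70 of the 168 genes named in the text, 38 above 0 and 32 below 0 (neonatal minus adult log2 fold change, adjusted p below 0.05). Over all tested genes it was called for 3588 of 16461 (21.8%). The 168 include genes named because their age difference was called, and list members chosen with earlier results known. Their count is thus a description only. A value above 0 is a larger rise or a smaller fall in neonates, and does not tell which age had the higher SP8 level. Among lineage factors, differences above 0 were 0.41 for Cbfb, 0.48 for Gata3 and 1.01 for Id3. Below 0 were -0.81 for Runx3, -0.56 for Tox, -0.57 for Bcl6, -1.40 for Foxo1 and -1.89 for Id2. Among recombination, coreceptor and DP stage genes, differences above 0 were 0.93 for Cd4, 1.02 for Rag1, 0.91 for Rag2, 0.53 for Ptcra, 0.62 for Plxnd1, 1.02 for Cd24a and 0.90 for Mns1. Below 0 were -1.05 for Ccr9. Among receptor signalling, activation and Notch genes, differences above 0 were 0.62 for Nr4a1 and 1.09 for Pdcd1. Below 0 were -0.53 for Cblb, -1.36 for Notch1, -1.06 for Notch3, -3.48 for Dtx1 and -4.0 for Kit. Among trafficking and cytokine genes, differences above 0 were 1.08 for Ccr7, 1.00 for Ccr4 and 1.76 for Il2rb. Below 0 were -1.49 for Itgae, -2.08 for Il6ra, -1.82 for Socs3, -0.93 for Jak3 and -0.80 for Tgfbr2. Among survival and cell cycle genes, differences above 0 were 0.72 for Bcl2l1, 0.66 for E2f2 and 0.66 for Cdk4. Below 0 were -0.57 for Bcl2, -1.48 for Bmf, -0.90 for Ccnd2, -1.23 for Cdkn1c and -3.74 for Tnfrsf25. Among class I, interferon and cytotoxic genes, differences above 0 were 0.79 for H2-K1, 0.63 for H2-D1, 0.62 for Psme2, 0.91 for Oas3, 2.95 for Ifit1bl1, 1.41 for Gzma and 1.18 for Lgals1. Below 0 were -0.71 for H2-T23, -6.42 for H2-Q6, -0.58 for Stat2, -0.54 for Gbp4, -0.88 for Prf1 and -0.70 for Ctsw. Among metabolism genes, differences above 0 were 1.11 for Ldha, 0.71 for Tpi1, 1.30 for Hk2, 0.80 for Ldhb, 0.71 for Gapdh and 0.97 for Hmgcs1. Below 0 were -5.07 for Abca1 and -1.33 for Abcg1. Among the remaining genes, differences above 0 were 1.15 for Gimap4, 1.56 for Igf2bp3, 3.45 for Golm1, 1.17 for Adam12, 4.06 for H19, 2.52 for Pdlim4 and 2.48 for Hist1h2ai. Below 0 were -0.65 for St3gal1, -0.62 for Kdm6b and -3.52 for Rbm24. Golm1 was at or below 3 counts in DP of both ages, and H2-Q6 in adult DP. Their differences depend on the prior count and are no measured size.

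Of these 70 calls, 63 held under every alternative fit that tested the gene, the 2-fold requirement not among them. Besides Rag1, the difference for Gata3 was not called without adult DP replicate 2 (0.34) or with library totals alone (0.39). Ccnd2 was not called without adult DP replicate 4, adult SP8 replicate 3, neonatal DP replicate 1 or neonatal SP8 replicate 4 (-0.63 to -0.84), nor with only the 16 DP and SP8 libraries (-0.90). H19 was not called without adult DP replicate 4 (2.20), and H2-Q6, of which adult DP held 3 counts or fewer per library, without neonatal DP replicate 1 (-4.83). Golm1, with DP of both ages at or below 3 counts, was not called without adult DP replicate 2 or 4, adult SP8 replicate 3, any 1 neonatal DP library or neonatal SP8 replicate 4 (3.04 to 3.46), nor with the replicate block (3.43, adjusted p = 0.056), limma-voom (1.47) or library totals alone (3.48). Adam12 was not called without adult DP replicate 1 or 4, any 1 adult SP8 library, neonatal DP replicate 1 or 3 or neonatal SP8 replicate 3 or 4 (1.09 to 1.28), nor with limma-voom (1.11) or library totals alone (1.08).

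In 20 of 322 checks over groups of 4 libraries, 1 library lay farther from the others than Dixon's 95% limit allows, where chance gives about 1 in 20. In DP these were replicate 1 for Patz1 (218 CPM) and Eomes (0.417), replicate 2 for Adam12 (193), and replicate 3 for Ms4a4b (6.44), Rflnb (0.211) and Rbm24 (46.1). DP replicate 4 stood apart for Id3 (102 CPM), Mcl1 (494), Mcm5 (148, the others 94.7 to 103), Cd163l1 (0.176) and Scn4b (36.3). In SP8 these were replicate 1 for Mcl1 (328 CPM), E2f2 (383), Ighm (370) and Kit (20.7), and replicate 2 for Runx1 (85.7, the others 71.1 to 72.0) and Nfkbia (132). SP8 replicate 3 stood apart for Pdcd1 (13.5 CPM), H2-T23 (238) and Cd27 (177).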

How the results depend on the processing

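Of 168 genes named for the transition, 153 kept their direction and their side of the threshold under every alternative fit that tested them. This share is high in part by choice, since 10 list members whose sign or call changed between settings were left unnamed after their values were seen. The number of called genes lay between 10877 and 11260 when 1 library was left out, and the number of called age differences between 2885 and 3887. A requirement of at least 2-fold was applied to the counts and not to single named genes. It left 6408 called genes (3355 higher, 3053 lower) and 753 age differences (201 above 0, 552 below 0). With the replicate block, which pairs libraries by number within an age, 11872 genes and 4770 age differences were called; beyond Lef1, Nr4a1, S1pr1 and Golm1, it changed among named genes only the age differences of Lef1 (-0.39, adjusted p = 0.012) and of Trbc2, Cd3e, Cd3g, Cxcr4, Mcm5, Sqle, St6galnac4 and Dnmt1, which it called (adjusted p of 0.0018 to 0.033). With library totals alone, the activation list had 5 genes called lower (2 otherwise) and the fetal list 5 called higher (8 otherwise). Other lists shifted as well. The DNA and histone enzymes then had 10 higher and 10 lower (14 and 7 otherwise). The receptor complex list had 25 lower (19 otherwise), and the NF-kappa B list 12 higher and 12 lower (15 and 10 otherwise). The genes that changed sign were not called in the fit reported. Cd69 gave -0.17 with library totals, and with 1 library left out it ran from -0.060 (without DP replicate 2, below 0 also without SP8 replicate 2) to 0.13. H2-T23 gave -0.14 with library totals. Notch1 gave 0.0033 with no filter, and with 1 library left out it ran from -0.039 to 0.050 (above 0 without DP replicate 2, SP8 replicate 3 or SP8 replicate 4). Ighm ran from -0.042 to 0.027 (above 0 without SP8 replicate 1). Ptcra (-0.33), Mns1 (-0.34) and Egr1 (-0.38) were called lower with library totals. Tnfrsf25 (log2 -0.32, adjusted p = 0.045) was not called when any 1 of 7 libraries was left out (all but DP replicate 2). The causes of these changes were not tested. Counts per gene near the floor limit folds of genes silent in DP to lower bounds, and 4 libraries per group limit small changes.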

Other observations

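The genes of the largest age differences included some outside the lists. The histone gene Hist1h2ai, 1 of several near-identical histone genes, was at 1.43, 1.81, 1.21 and 3.34 CPM in neonatal DP and 13.3, 15.2, 14.1 and 15.5 CPM in neonatal SP8, against 2.08 and 2.82 CPM (means) in adult DP and SP8. Pdlim4, a cytoskeletal adaptor, was at 0.333 ± 0.210 CPM in neonatal DP and 13.9 ± 1.36 in neonatal SP8, against 5.19 CPM in adult SP8. Ifit1bl1 reached 8.27 ± 1.22 CPM in neonatal SP8 and 41.5 CPM in adult SP8, so its difference of 2.95 came with a lower SP8 level in neonates.

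Summed over Xist and 4 Y-linked genes, the level was 368 to 397 CPM in neonatal DP and 203 to 238 CPM in neonatal SP8, and none of the 4 tested genes was called, although in each of the 4 the DP and SP8 libraries did not overlap (median log2 -0.83). Adult sums ran from 41.5 to 480 CPM in DP and from 35.5 to 371 CPM in SP8. The spread in the test was estimated over all 31 libraries, adult ones included. The labels gave no sex, and the part of sex in the age differences was not tested.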
